A study of Mus musculus with 28 samples.

Results

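Pvalb, the gene of the calcium-binding protein parvalbumin, and 5 genes that were higher beside it in sorted cortical nuclei carrying Cas9 (Ank1, Btbd11, Nek7, Minar1 and Oprd1) were followed through RNA counts of 28 libraries. The 6 genes are 6 of the 41549 genes in the tables and were found by exact symbol. They had been picked because their RNA was higher in Cas9-positive than in Cas9-negative nuclei, so that difference is given below as a description, with no test. The difference between the vectors was not used to pick them and was tested, in libraries that are the same ones.

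The animals were 7 mice, numbered 17 to 23, and both motor cortices of each were injected with an adeno-associated virus (AAV) that carries Cas9, a DNA-cutting nuclease. The left side received the vector AAV-Cas9-miR-124-empty and the right side AAV-Cas9-miR-124-g4, called empty and g4 here, so that vector and hemisphere cannot be told apart. Nuclei of tissue fixed in paraformaldehyde were sorted by fluorescence after an HA-tag stain, which gave HA-positive nuclei, labelled Cas9-positive, and HA-negative nuclei. Each of the 2 vectors and 2 fractions makes a group, 4 in all, with 7 libraries each, 1 per animal. All groups came from injected cortex, and no uninjected tissue is among them. The labels used here name neither the promoter that drives Cas9, nor what g4 stands for, nor the age or strain of the mice. The RNA is nuclear, so the values describe transcripts in the nucleus.

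Fast-spiking interneurons with parvalbumin are inhibitory neurons that release GABA (gamma-aminobutyric acid) onto the cell body and the start of the axon of their targets, and they fire long, rapid trains of action potentials. Parvalbumin binds the calcium that enters during such trains. These cells rely on fast Kv3 potassium channels, on presynaptic proteins for quick release such as Syt2 and Vamp1, and on the metabolic regulator Ppargc1a. Ank1 encodes ankyrin-R, a scaffold that ties membrane proteins to the spectrin cytoskeleton. Btbd11, also called Abtb3, encodes a protein with BTB and ankyrin-repeat domains found at synapses of inhibitory interneurons. Nek7 encodes a kinase of the NIMA-related family that is known from mitotic spindles and from the NLRP3 inflammasome. Minar1 encodes a membrane protein reported to bind NOTCH2, and Oprd1 encodes the delta opioid receptor, a receptor for enkephalins that couples to inhibitory G proteins.

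The genes lie on separate chromosomes of the mouse genome (GRCm38, GENCODE annotation). Pvalb spans chr15:78191114-78206400 on the minus strand, Ank1 chr8:22974844-23150497 on the plus strand and Btbd11 chr10:85386814-85660292 on the plus strand. Nek7 spans chr1:138482875-138620141, Minar1 chr9:89587216-89623125 and Oprd1 chr4:132110726-132144486, all on the minus strand. Ank1 overlaps 5 other annotated genes, of which Gm15816, Gm44365 and Mir3107 lie on the opposite strand, and Nek7 overlaps 3, of which Gm28501 lies on the opposite strand. The strand setting of the counting is not given in the sources used here, so reads of these overlapping stretches cannot be assigned with certainty.

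Since miR-124, a microRNA, gives the vectors their name, the longest annotated 3' untranslated region of each gene was searched for its sites: GTGCCTT (7mer-m8, pairing with bases 2 to 8 of the microRNA), TGCCTTA (7mer-A1) and the 8mer that holds both, on the transcribed strand. Of 21039 genes with such a region, 19.6% held at least 1 site. Pvalb, Ank1, Nek7 and Oprd1 held 0. Btbd11 held 1 site at chr10:85659072-85659078 on the plus strand, and Minar1 held 2, at chr9:89590221-89590227 and chr9:89587489-89587495 on the minus strand. The 3 sites are shown 5' to 3' with the match in capitals, because these are the places where the vectors' namesake could pair with RNA of the 6 genes.
Btbd11, 7mer-A1: tcacatattccTGCCTTAgtgattcgatc
Minar1, 7mer-m8: aacttgtccttGTGCCTTgaagagcagag
Minar1, 7mer-A1: ttccttatttaTGCCTTAtgaacaataga
A match describes these letters and is not evidence that the site is used.

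Promoter sequence was taken from RefSeq (GRCm38.p6) and matched for 5 of the 6 genes: Pvalb, Btbd11, Nek7, Minar1 and Oprd1. The 250 bases before each annotated start were searched on both strands for the MEF2 consensus, the TATA box TATAAA, the estrogen-related receptor motif AAGGTCA, the E-box CACGTG and the LIM-homeobox motif TAATTA, a set picked after the sequences had been seen. Pvalb and Btbd11 have 2 annotated starts each, which made 7 windows. The first window of Pvalb, the first of Btbd11 and the window of Oprd1 each held 1 match, and the second windows of Pvalb (chr15:78204238-78204487) and Btbd11 (chr10:85598161-85598410) and those of Nek7 and Minar1 held 0. The 3 windows with a match are shown with the match in capitals, because they are the windows of these genes in which a searched motif was found. The Pvalb window is chr15:78206401-78206650 on the minus strand, with a MEF2 match that starts 180 bases before the start of the gene. The Btbd11 window is chr10:85386564-85386813 on the plus strand, with TAATTA at 81 bases, and the Oprd1 window is chr4:132144487-132144736 on the minus strand, with CACGTG at 86 bases.
Pvalb: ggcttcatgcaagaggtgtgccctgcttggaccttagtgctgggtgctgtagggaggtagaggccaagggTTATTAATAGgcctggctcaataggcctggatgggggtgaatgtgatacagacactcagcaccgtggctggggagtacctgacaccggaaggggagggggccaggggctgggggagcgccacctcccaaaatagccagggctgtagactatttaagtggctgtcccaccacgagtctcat
Btbd11: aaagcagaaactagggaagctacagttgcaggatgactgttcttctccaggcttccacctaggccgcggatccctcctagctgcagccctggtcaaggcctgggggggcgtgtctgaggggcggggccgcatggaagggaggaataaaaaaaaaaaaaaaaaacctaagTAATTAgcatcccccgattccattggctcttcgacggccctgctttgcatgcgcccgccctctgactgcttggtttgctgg
Oprd1: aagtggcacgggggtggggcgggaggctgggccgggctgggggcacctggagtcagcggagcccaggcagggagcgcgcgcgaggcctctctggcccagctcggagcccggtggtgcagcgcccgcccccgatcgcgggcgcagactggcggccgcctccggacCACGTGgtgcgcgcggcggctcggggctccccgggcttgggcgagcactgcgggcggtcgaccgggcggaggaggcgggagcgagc
Among 32851 promoters of this length, 2.92% held the MEF2 consensus, 4.84% TAATTA and 6.02% CACGTG, while TATAAA (12.4%) and AAGGTCA (4.08%) were in none of the members' windows. The matches of the members overlapped no other searched motif. G and C made up 80% of the Oprd1 window, against a median of 52.4% over all promoters. A match is a description of letters, not of a bound factor.

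A library had between 248612 and 902944 counts in total and between 8687 and 13668 detected genes. In HA-positive nuclei, 4 libraries had under 10000 detected genes: those of animals 17, 21 and 22 with empty and of animal 18 with g4. The g4 HA-positive library of animal 19 stood apart. Its summed oligodendrocyte markers were at 1564 CPM (counts scaled to library size), against 104 to 228 CPM in the other 6 libraries of the group, and its summed microglia markers at 334 CPM, against 2.55 to 42.2. It also held both the female-specific RNA Xist, at 644 CPM, and 4 Y-linked genes, at 48.0 CPM together. The remaining 15 libraries of animals 17 to 20 had Xist at 0 and held counts of Y-linked genes. In the 12 libraries of animals 21 to 23, Xist was at 445 CPM or more and the Y-linked genes at 3.78 CPM at most. Each group thus held animals of both patterns, and no fit had sex as a term. Results between fractions with g4 and between vectors are given without it where it changed the call of a gene named here or moved a printed list median by over 1.5 times, and for each of the 6 genes. The labelled sort was set against markers: oligodendrocyte markers summed to 53.7 to 122 CPM in empty HA-positive against 1224 to 2160 CPM in empty HA-negative libraries. Of 16 genes of excitatory neurons 0 were at 0 in all libraries of any group, which can check neither the region nor the sort.

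Parvalbumin RNA was several times higher in HA-positive than in HA-negative nuclei with either vector. Levels are CPM scaled with TMM factors over the 28 libraries. In empty HA-positive libraries Pvalb had a lowest value of 60.2 CPM (animal 20), a median of 104 and a highest of 182 (animal 17), and in empty HA-negative libraries it ran from 0 (animal 18) over a median of 16.8 to 34.0. The 2 ranges did not overlap. With g4 it had 25.1 (animal 19), 69.4 and 128 CPM in HA-positive and 8.25, 9.42 and 28.2 CPM in HA-negative libraries. Here the library of animal 19 was the 1 HA-positive library that fell inside the HA-negative range, and HA-positive was above HA-negative within each of the 7 animals. The means were 106 ± 40.6 and 15.5 ± 12.3 CPM with empty (SD, n = 7) and 75.7 ± 36.8 and 15.3 ± 8.68 CPM with g4. The fitted log2 fold changes were 2.82 ± 0.43 with empty and 2.30 ± 0.36 with g4 (SE), and the second was 2.46 without animal 19's g4 HA-positive library. In bulk nuclei, more nuclei of a type and more RNA per nucleus cannot be told apart, for Pvalb or for any other gene here. A library held 20 to 81 Pvalb counts in HA-positive and 0 to 18 in HA-negative nuclei, so the lower levels rest on few reads.

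Ank1, the ankyrin-R scaffold gene, separated the fractions with both vectors. Its lowest, median and highest values were 96.9, 130 and 238 CPM in empty HA-positive and 17.0, 24.8 and 33.8 CPM in empty HA-negative nuclei. With g4 they were 62.0, 115 and 201 CPM in HA-positive and 15.0, 32.1 and 58.6 CPM in HA-negative nuclei. The fractions did not overlap with either vector, although the gap with g4 was only from 58.6 to 62.0 CPM. The group means were 144 ± 46.4, 111 ± 46.7, 26.5 ± 6.41 and 34.7 ± 17.1 CPM (HA-positive with empty and with g4, then HA-negative with empty and with g4). The log2 fold change between fractions was 2.48 ± 0.25 with empty and 1.71 ± 0.29 with g4.

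Btbd11, the synaptic BTB protein, also had fractions that did not overlap. It had 69.9, 126 and 241 CPM (lowest, median and highest) in empty HA-positive and 24.1, 40.9 and 59.3 CPM in empty HA-negative libraries. With g4 the values were 59.6, 125 and 143 CPM against 16.5, 23.6 and 50.8 CPM. HA-positive was higher in 7 of 7 animals with each vector. The means were 138 ± 52.1 and 40.3 ± 13.0 CPM with empty and 114 ± 28.3 and 27.3 ± 12.3 CPM with g4, and the log2 fold changes 1.81 ± 0.27 and 2.09 ± 0.26.

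For the kinase gene Nek7 the fractions were apart with g4 and met in 1 animal with empty. With g4 the lowest, median and highest values were 62.1, 126 and 156 CPM in HA-positive and 14.8, 15.7 and 36.8 CPM in HA-negative libraries. With empty they were 47.2, 105 and 195 CPM against 13.5, 22.6 and 54.8 CPM. Animal 22 gave both the lowest HA-positive and the highest HA-negative value with empty, so the order was turned in that animal and held in the other 6. The means were 108 ± 49.1 and 27.9 ± 14.7 CPM with empty and 112 ± 35.6 and 21.0 ± 8.27 CPM with g4, and the log2 fold changes 1.99 ± 0.33 and 2.39 ± 0.27.

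Minar1, the NOTCH2-binding membrane protein gene, had few reads in HA-negative nuclei, at 0 to 21 counts per library. It had 15.2, 46.7 and 76.0 CPM in empty HA-positive and 0, 7.56 and 27.1 CPM in empty HA-negative libraries, and 15.3, 42.2 and 97.0 CPM against 1.72, 5.56 and 16.2 CPM with g4. In each comparison 6 of 7 HA-positive libraries lay above the whole HA-negative range, and HA-positive was higher within 7 of 7 animals. The means were 46.5 ± 19.0 and 9.41 ± 8.52 CPM with empty and 44.9 ± 27.0 and 6.33 ± 5.07 CPM with g4. The log2 fold changes were 2.24 ± 0.49 and 2.73 ± 0.47, the widest errors of the 6 genes with each vector.

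Oprd1, the delta opioid receptor gene, had the smallest difference between the fractions with the empty vector among the 6 genes. Its lowest, median and highest values were 13.2, 41.0 and 55.0 CPM in empty HA-positive and 16.6, 20.8 and 33.2 CPM in empty HA-negative libraries. The ranges overlapped, and the HA-positive library of animal 22 lay below the whole HA-negative range. With g4 the values were 31.6, 72.6 and 110 CPM in HA-positive against 3.76, 18.8 and 24.6 CPM in HA-negative libraries, with no overlap. The means were 38.0 ± 14.0 and 22.3 ± 5.66 CPM with empty, a ratio of 1.70, and 70.5 ± 30.1 and 14.4 ± 8.49 CPM with g4, a ratio of 4.91. The log2 fold changes were 0.82 ± 0.38 and 2.33 ± 0.38. The levels rest on 7 to 52 counts per library in HA-positive and 2 to 19 in HA-negative nuclei.

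**Figure D1:**
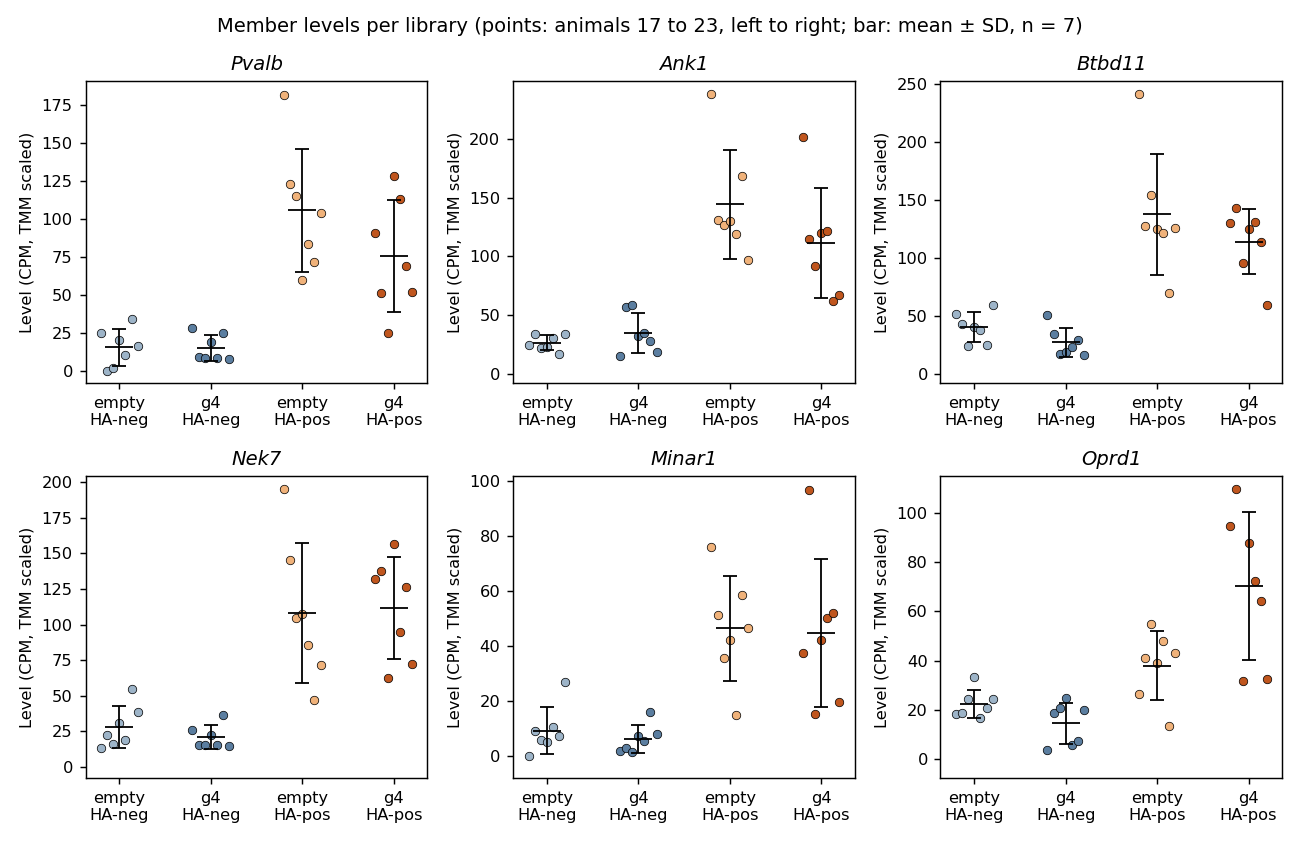
CPM of each of the 6 genes in every library (points, 7 per group), with the mean and SD of each of the 4 groups. The HA-positive means lie above the HA-negative means for each gene, while single libraries overlap for Pvalb, Nek7, Minar1 and Oprd1 with 1 or both vectors. Oprd1 with the empty vector shows the smallest separation of means, from 22.3 to 38.0 CPM.

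Set side by side, the order of the group means was empty HA-positive, g4 HA-positive and then the 2 HA-negative groups for Pvalb, Ank1, Btbd11 and Minar1, and g4 HA-positive before empty HA-positive for Nek7 and Oprd1. Neighbours within a fraction had overlapping ranges for each of the 6 genes. Non-overlap of the fractions was seen for 3 genes with empty (Pvalb, Ank1 and Btbd11) and 4 with g4 (Ank1, Btbd11, Nek7 and Oprd1). Over all tested genes, HA-positive libraries were wholly above HA-negative ones for 1.12% with empty and 1.05% with g4. The genes were picked on this contrast, so nothing is read from these counts. The median log2 fold change of the 6 genes was 2.12 with empty and 2.31 with g4, against 0.01 over all tested genes in both cases. The members nearest the bottom of the group were Oprd1 with empty (0.82) and Ank1 with g4 (1.71).

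The library of animal 17 gave the highest empty HA-positive value of 5 of the 6 genes (Pvalb, Ank1, Btbd11, Nek7 and Minar1), and it was one of the 4 shallow libraries, with 9275 detected genes. Without the 4 shallow libraries the log2 fold change between fractions with empty was 2.72 for Pvalb, 2.18 for Ank1 and 1.72 for Btbd11. It was then 1.95 for Nek7, 2.11 for Minar1 and 1.01 for Oprd1. The g4 HA-positive library of animal 19 gave the lowest value of its group for Pvalb, Nek7, Minar1 and Oprd1. Without it the g4 HA-positive means were 84.1 ± 32.1 CPM for Pvalb, 114 ± 50.2 for Ank1, 117 ± 29.7 for Btbd11, 120 ± 30.8 for Nek7, 49.8 ± 25.8 for Minar1 and 76.9 ± 27.1 for Oprd1 (SD, n = 6). The log2 fold changes between fractions with g4 were then 1.77 for Ank1, 2.14 for Btbd11, 2.51 for Nek7, 2.90 for Minar1 and 2.47 for Oprd1. The part of glial RNA in the low values of that library was not tested.

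**Figure D2:**
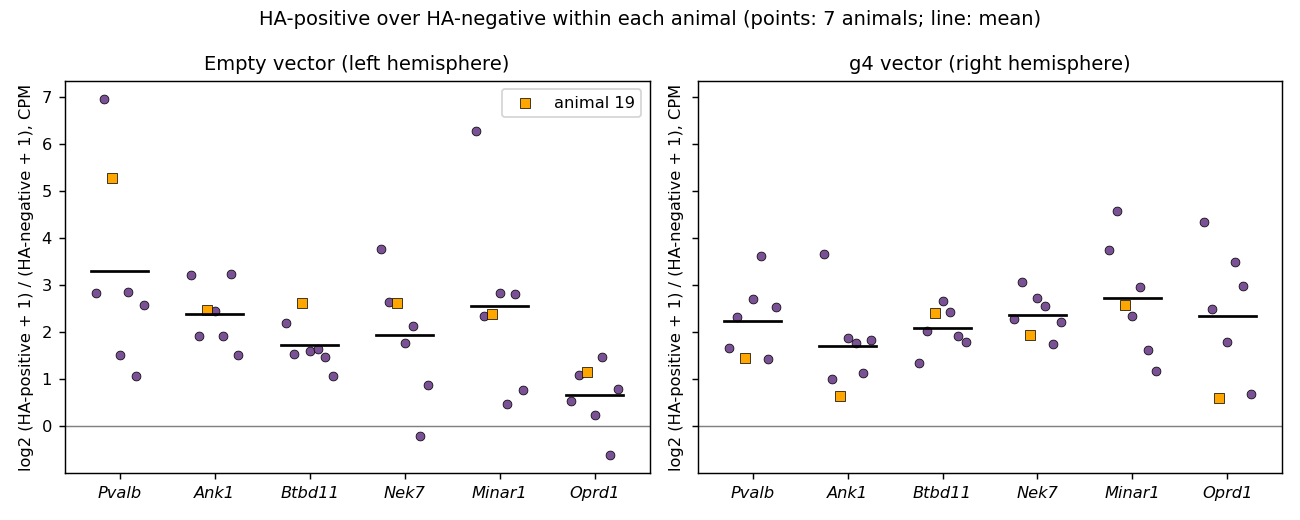
Log2 ratio of HA-positive to HA-negative CPM (1 CPM added to both) of the 6 genes within each of the 7 animals, by vector, with animals 17 to 23 from left to right, the mean as a line and animal 19 as a square. Points below 0 are Nek7 and Oprd1 in animal 22 with the empty vector, and the highest Pvalb and Minar1 points with empty belong to animals whose HA-negative library had 0 counts of the gene.

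Per length, Pvalb stood far above the others. CPM divided by the kilobases of annotated exon gave 102 CPM per kilobase for Pvalb in empty HA-positive and 72.7 in g4 HA-positive nuclei. The next in order were Nek7 (14.7 and 15.1), Btbd11 (13.7 and 11.4) and Ank1 (10.7 and 8.21), followed by Oprd1 (9.45 and 17.5) and Minar1 (6.40 and 6.17). Oprd1 took the second place with g4. In HA-negative nuclei Pvalb had 14.9 and 14.7 CPM per kilobase with empty and g4, and the other 5 genes had 0.871 (Minar1 with g4) to 5.55 (Oprd1 with empty). Reads of introns are common in nuclear RNA and the counting of introns is not given in the sources used here, so these per-length levels hold only if counts came from exons.

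More than the background share of the genes used by fast-spiking cells beside parvalbumin rose in HA-positive nuclei. Of a list of 30 such genes without the 6 members, 22 had enough counts to be tested with empty, and 14 rose and 0 fell at a Benjamini-Hochberg adjusted p under 0.05 by edgeR's quasi-likelihood test, against 3.5% of all tested genes that rose. With g4, 24 were tested, 13 rose and 0 fell, against 3.32% of all. The median log2 fold change of the list was 1.22 and 1.07. Among them were the Kv3 channel genes Kcnc1 (1.82 ± 0.17 with empty and 1.74 ± 0.24 with g4) and Kcnc2 (1.75 ± 0.16 with g4). The calcium sensor of fast release Syt2 rose by 2.40 ± 0.31 and 2.03 ± 0.27, the neurofilament gene Nefh by 2.41 ± 0.36 and 1.71 ± 0.38, and the neuregulin receptor gene Erbb4 by 1.66 ± 0.18 and 1.73 ± 0.15. The genes called with both vectors numbered 12, which is 85.7% of those called with empty and 92.3% of those called with g4. Maf was among those called with empty alone and Sox6 was called with g4 alone, and the differences between the vectors were not tested one by one. Without animal 19's g4 HA-positive library, 25 list genes were tested with g4 and 16 were called, among them the 13. Kcnab3 and Lhx6 then rose as well, and Tnr, a matrix gene, fell (-0.52 ± 0.16, adjusted p 0.0321 by edgeR). The list was put together with earlier results of these data known.

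Genes of other interneuron classes rose as well. General GABA genes rose in 4 of 4 tested with empty (median log2 fold change 1.55) and in 4 of 5 with g4 (1.08). Gad1, which makes GABA, rose by 1.83 ± 0.18 and 1.67 ± 0.19. Of the somatostatin interneuron list 4 of 5 rose with empty (median 1.73) and 5 of 7 with g4 (1.65), with Sst itself at 2.22 ± 0.19 and 2.10 ± 0.19. Cort, called with g4 (24.8 against 3.39 CPM), was not tested without animal 19's g4 HA-positive library, where 4 of 6 rose. The filter on low counts can be met by 1 fraction alone. The tested genes of any list, glial ones too, can therefore include some kept through the fraction where they were high. Genes of VIP and other interneurons of the caudal ganglionic eminence rose in 2 of 8 (Reln and Cnr1, median 0.50) and 1 of 9 (Vip, median 0.40). With the animal as a block Cnr1 was no longer called (adjusted p 0.0567 by edgeR). Genes of excitatory neurons had a median of -0.56 with empty, with 1 of 13 called higher and 3 lower, and -0.28 with g4, with 0 of 14 higher and 2 lower. With empty, Rasgrf2 was higher (1.05 ± 0.25), and Bcl11b (-1.50 ± 0.29), Foxp2 (-3.53 ± 0.65) and Syt6 (-3.36 ± 0.55) were lower. Bcl11b and Foxp2 were those lower with g4. Slc17a7 and Camk2a passed with neither vector, so the calls do not describe excitatory genes as a whole. With the animal as a block Nrgn was also lower with empty (adjusted p 0.00974 by edgeR).

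Glial genes moved with the fraction too. Oligodendrocyte markers fell in 7 of 7 tested with empty (median log2 fold change -5.70) and in 6 of 8 with g4 (-2.23), where 3.5% and 3.08% of all tested genes fell. Microglia markers fell in 5 of 5 (-3.78, the same with the 2 genes at 0 in all empty HA-positive libraries, Cx3cr1 and P2ry12, set to the bound of 3 counts over the group) and 3 of 5 (-2.47). Without animal 19's g4 HA-positive library these g4 values were larger: 9 of 9 tested oligodendrocyte markers (median -4.12) and 5 of 5 microglia markers (-4.70) fell. With that library kept and the animal as a block, Mal and Trf lost their calls with g4 (adjusted p 0.0585 and 0.0584 by edgeR). Of 5 astrocyte genes 1 fell with empty, and 0 passed with g4 by edgeR (0 also at an unadjusted p under 0.05). The part of these other cell types in the members' values was not tested.

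**Figure D3:**
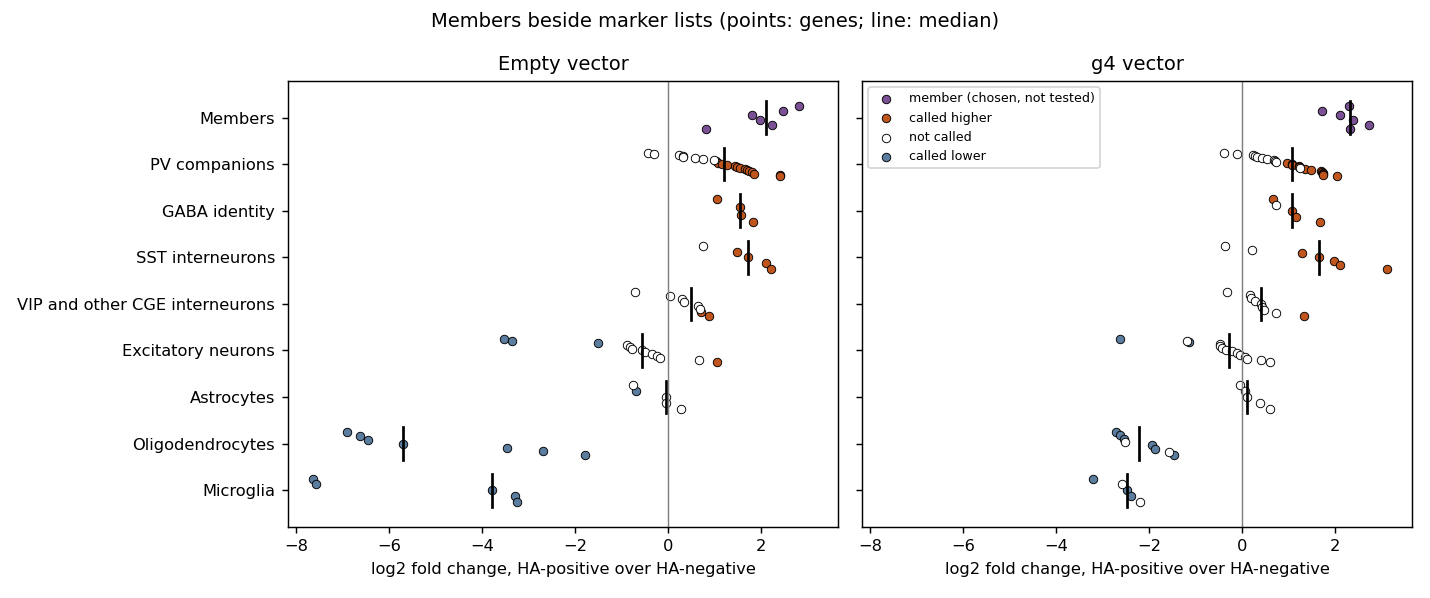
Log2 fold change of HA-positive over HA-negative nuclei for each tested gene of the marker lists, 1 row per list, with empty on the left and g4 on the right, orange (higher) or blue (lower) points for genes past the edgeR threshold, white for the others and a line at the list's median. The medians of the parvalbumin companions, GABA and somatostatin genes lie to the right of 0 and those of oligodendrocyte and microglia genes to the left. The top row holds the 6 genes picked on this contrast, with no test, and fitted values of Cx3cr1 and P2ry12 with empty depend on the prior count because the HA-positive libraries held 0.

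Genes of the members' families and genes of their partners were pooled. Between fractions, 3 of 18 tested were called with empty (16.7%, against 7.01% of all tested genes). With g4 it was 1 of 23 (4.35%, against 6.4%). With the animal as a block it was 3 of 18 with empty (16.7%, against 5.85%) and 3 of 23 with g4 (13%, against 6.24%). The share with g4 thus depends on the block. These shares were not tested against each other. Without the block, the 3 with empty were Sptb, Epb41 and Penk and the 1 with g4 was Sptb, which are partners and not family members. With the block, Calb1 and Penk were called with g4 too. Of the other calcium buffers and calmodulins, 0 of 4 tested passed with either vector (edgeR), with medians of -0.01 and 0.14, and 1 (Calb1 with g4) had an unadjusted p under 0.05. Calb1, the calbindin gene of several interneuron classes, had 0.90 ± 0.33 with g4 (adjusted p 0.132 by edgeR), passed with the animal as a block (0.0483), and passed without animal 19's g4 HA-positive library (1.06 ± 0.25, adjusted p 0.00538). Among 8 ankyrins, spectrins and partners, the beta-spectrin gene Sptb rose (0.80 ± 0.18 with empty, adjusted p 0.00374, and 0.89 ± 0.19 with g4, adjusted p 0.00194, by edgeR). Epb41, the protein 4.1R gene, fell with empty (-0.93 ± 0.28, adjusted p 0.037). None of the tested genes listed with Btbd11 (2 with each vector), Nek7 (1 and 3) or Minar1 (2 and 4) passed. Of them 2, Dlg4 with empty and Notch2 with g4, had an unadjusted p under 0.05. Those listed with Btbd11 were Dlg4 and Dlg2, and its relatives Abtb1 and Abtb2 had too few counts to be tested. Those of Minar1 with empty were Mtor and Deptor, and its relative Minar2 was tested between fractions with g4 only. Of the opioid system, Penk, the precursor of the enkephalins that Oprd1 binds, fell with empty from 184 ± 110 to 29.8 ± 21.7 CPM (-2.49 ± 0.43, adjusted p 0.00097 by edgeR). With g4 it had 130 ± 87.9 and 27.5 ± 16.1 CPM (-2.22 ± 0.61, adjusted p 0.0501, or 0.00712 with the animal as a block and 0.0422 without animal 19's g4 HA-positive library).

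To compare the members' difference with that of 2 general GABA genes, their CPM was set against the sum of Gad1 and Gad2. The sum was 1201 ± 294 and 966 ± 267 CPM in empty and g4 HA-positive libraries. It was 452 ± 88.5 and 407 ± 94.8 CPM in the matching HA-negative libraries (SD, n = 7). Gad1 and Gad2 rose by unlike amounts in HA-positive nuclei. The log2 fold changes with empty and g4 were 1.83 ± 0.18 and 1.67 ± 0.19 for Gad1, and 1.06 ± 0.15 and 0.66 ± 0.16 for Gad2. The ratios therefore depend on Gad2 being in the sum, and ratios to Gad1 alone were not computed. Within an animal, Pvalb per Gad was higher in HA-positive nuclei by 1.89 ± 2.19 on the log2 scale with empty and 1.00 ± 1.02 with g4 (SD, 6 of 7 animals each, 1 CPM added). Ank1 was higher by 0.98 ± 0.72 (6 of 7) and 0.46 ± 0.99 (5 of 7), and Btbd11 by 0.33 ± 0.61 (5 of 7) and 0.84 ± 0.75 (5 of 7). Nek7 gave 0.54 ± 1.18 (4 of 7) and 1.12 ± 0.41 (7 of 7), and Minar1 1.15 ± 1.65 (5 of 7) and 1.47 ± 0.82 (7 of 7). Oprd1 per Gad was lower in HA-positive nuclei with empty, at -0.74 ± 0.89 (lower in 6 of 7), and higher with g4, at 1.09 ± 1.33 (5 of 7). Several of these SDs exceed their means, and the members were picked on the underlying contrast, so these are descriptions.

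Between the vectors, 0 of the 6 genes changed in HA-positive nuclei by edgeR, where 0.0599% of 5011 tested genes passed (3 genes, with 335 at an unadjusted p under 0.05). DESeq2 and limma voom also called 0 of the 6, and 1 of them, Oprd1, had an unadjusted edgeR p under 0.05. Their median log2 fold change was -0.20, against -0.01 over all tested genes, with 1 positive and 5 negative values. In HA-negative nuclei 4 of the 6 had enough counts to be tested and 0 passed, where 0% of 6262 genes passed by edgeR (236 at an unadjusted p under 0.05, 0 of them members, and 1 gene by DESeq2).

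Oprd1 had the largest difference. Per animal from 17 to 23 it had 26.4, 41.0, 55.0, 39.1, 48.0, 13.2 and 43.1 CPM in empty HA-positive libraries and 94.7, 110, 31.6, 87.8, 72.6, 64.5 and 32.3 CPM in g4 HA-positive libraries. It was higher with g4 in 5 of 7 animals, and these 5 g4 values lay above the whole range of the empty libraries. The ratio of means was 1.86 and the log2 fold change 0.85 ± 0.35 (edgeR p 0.0219, adjusted p 0.729). Over the alternative settings the log2 fold change ran from 0.50 to 1.10 and the adjusted p from 0.330 to 0.855. The lowest came without the 4 shallow libraries, and without the g4 library of animal 19, which was lower than its empty partner, it was 0.99. In HA-negative nuclei the sign was the other way, at -0.66 ± 0.41 (adjusted p 0.999 by edgeR), with g4 lower in 6 of 7 animals.

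Pvalb went the other way in HA-positive nuclei. From animal 17 to 23 it had 182, 123, 116, 60.2, 83.4, 71.8 and 104 CPM with empty and 90.8, 51.1, 25.1, 128, 113, 69.4 and 52.2 CPM with g4. It was lower with g4 in 5 of 7 animals and higher in animals 20 and 21, and the ranges overlapped. The log2 fold change was -0.53 ± 0.30 (adjusted p 0.754 by edgeR) and -0.36 without the g4 library of animal 19 (adjusted p 0.934). In HA-negative nuclei Pvalb did not pass the filter on low counts, and without that filter it gave 0.00 ± 0.39.

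Ank1 was lower with g4 in 6 of 7 animals in HA-positive nuclei (-0.43 ± 0.24, adjusted p 0.754 by edgeR), with 1 animal, 22, going from 168 to 62.0 CPM and animal 21 about level at 119 and 121 CPM. In HA-negative nuclei it was higher in 5 of 7 (0.34 ± 0.32, adjusted p 0.999). Btbd11, which carries 1 miR-124 site, had -0.31 ± 0.24 in HA-positive nuclei (lower in 4 of 7, adjusted p 0.860) and -0.60 ± 0.31 in HA-negative nuclei (lower in 6 of 7, adjusted p 0.999 by edgeR). Minar1, which carries 2, had -0.10 ± 0.39 in HA-positive nuclei (lower in 5 of 7, adjusted p 0.976), and its sign turned without the g4 library of animal 19 (0.07). Nek7 had -0.00 ± 0.27 in HA-positive nuclei (adjusted p 0.997) and -0.41 ± 0.36 in HA-negative nuclei (adjusted p 0.999 by edgeR). Without that library the HA-positive values were -0.38 for Ank1, -0.26 for Btbd11 and 0.11 for Nek7. Without the 4 shallow libraries they were -0.16 for Ank1, -0.30 for Btbd11, -0.31 for Minar1 and -0.05 for Nek7. A p that misses the threshold does not show that the vectors gave equal levels.

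**Figure D4:**
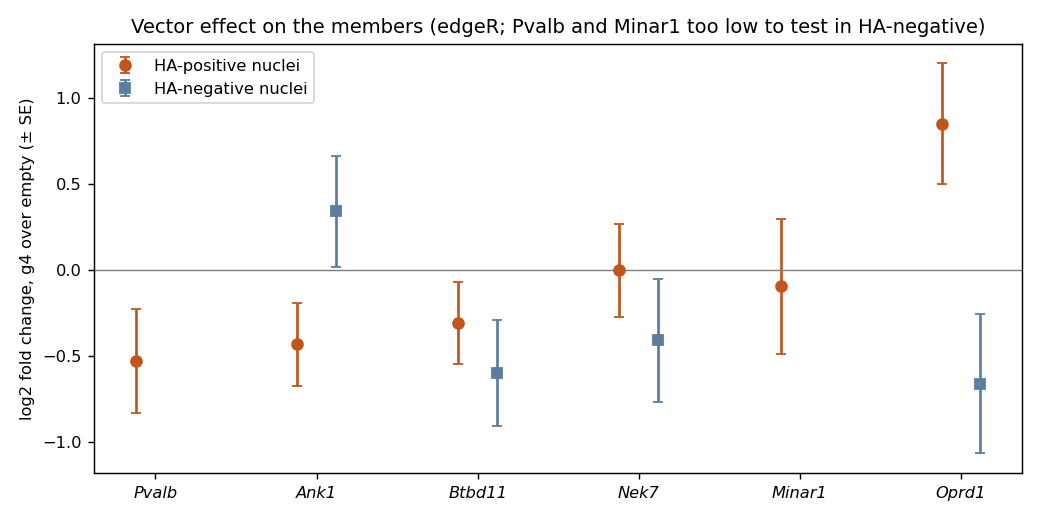
Log2 fold change of g4 over empty (points, with bars of 1 SE) of the members in HA-positive and HA-negative nuclei, for those that passed the filter on low counts. Oprd1 has 0.85 in HA-positive and -0.66 in HA-negative nuclei, and the other values lie between -0.60 and 0.34.

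The companions of parvalbumin leaned the same way as Pvalb between the vectors. Of 25 tested in HA-positive nuclei, 19 had negative and 6 positive log2 fold changes, with a median of -0.26. Only Vamp1, a presynaptic vesicle fusion gene, passed, with a fall by 1.11 ± 0.20 on the log2 scale (adjusted p 0.0103 by edgeR, and 0.0835 with the animal as a block, which ends the call, as leaving out the 4 shallow libraries did). The 4 tested GABA genes (median -0.56) and the 6 tested somatostatin list genes (-0.33, or -0.19 without animal 19's g4 library) were all negative with 0 called by edgeR (3 and 0 at an unadjusted p under 0.05), while 5 of 5 astrocyte genes were positive (median 0.61) with 0 called and 1 at an unadjusted p under 0.05. Per Gad1 and Gad2, the member difference between the vectors in HA-positive nuclei was 1.18 ± 0.91 for Oprd1 (SD, higher in 7 of 7 animals) and 0.43 ± 0.55 for Nek7 (6 of 7). It was -0.23 ± 0.81 for Pvalb (lower in 4 of 7) and -0.09 ± 0.56 for Ank1, which was higher per Gad in 5 of 7 animals although its CPM was lower in 6 of 7. Btbd11 had 0.09 ± 0.48 (higher in 4 of 7) and Minar1 0.19 ± 0.93 (lower in 5 of 7), so the SD exceeded the mean for 5 of the 6 genes. These ratios depend on Gad2 too, since between the vectors Gad1 had -0.20 ± 0.19 and Gad2 -0.66 ± 0.16 in HA-positive nuclei (SE). The summed astrocyte markers ran from 632 to 1217 CPM in empty and from 927 to 2288 CPM in g4 HA-positive libraries. Their part in the difference between the vectors was not tested.

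The g4 effect in HA-positive minus that in HA-negative nuclei is the same quantity as the difference between the 2 contrasts that chose the genes, so it is described only. It was 1.52 ± 0.53 on the log2 scale for Oprd1 and -0.75 ± 0.39 for Ank1. Pvalb had -0.51 ± 0.60, Btbd11 0.30 ± 0.37, Nek7 0.42 ± 0.43 and Minar1 0.52 ± 0.68, against a median of 0.03 over 7197 genes, of which 0% passed (0 genes by edgeR, 359 at an unadjusted p under 0.05). The Oprd1 value was 1.64 without animal 19's g4 HA-positive library and 1.15 without the shallow libraries. For Ank1 these were -0.71 and -0.49.

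Across the 28 libraries, genes whose levels ran most like that of Pvalb included Mdh1, a malate dehydrogenase (Pearson r 0.85), Rcan2, a calcineurin regulator (0.84), and Eif4g2, a translation initiation gene (0.83). These are correlations of log2(CPM + 1) over 8205 genes with a mean of at least 10 CPM, and the points share sort, depth and animal. With each group's mean taken off, r was 0.57, 0.59 and 0.51. Nek7 was the most like Pvalb of the other members, at rank 6 (r 0.83), followed by Btbd11 at rank 21 (0.77), Ank1 at 53 (0.70), Minar1 at 101 (0.64) and Oprd1 at 290 (0.51). With group means taken off, Nek7 kept 0.52 and Btbd11 0.32, while Minar1 (0.01), Oprd1 (0.06) and Ank1 (-0.12) were near 0. Over the 15 pairs of members, r had a median of 0.74 over all libraries and 0.14 with group means taken off, from -0.12 for Pvalb with Ank1 to 0.52 for Pvalb with Nek7. Most of the likeness among the 6 genes lay between the sorted fractions, on which they were picked.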

How the data were processed

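Nuclei of motor cortex were sorted by an HA tag, and RNA of 28 libraries (7 mice, 4 groups) was sequenced. Values are raw counts for each gene as deposited, per the labels. The genome build was GRCm38, per the submitters' processing notes, and the sources used here do not give the aligner, counting program or strand setting. The files hold no zeros, and cells marked NA were read as 0. Leaving out 1 entry without a gene name, 41549 of 41550 were used. Groups and animals came from sample titles, and descriptions tied samples to columns; for animals 21 to 23 the deposited column carries the number 22 to 24, and the title's number is used here.

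The 6 genes and the marker lists were chosen with earlier results of these data known. Tests were edgeR 4.0.16 quasi-likelihood fits in R 4.3.3 (filterByExpr, TMM, two-sided) of the libraries compared, with Benjamini-Hochberg adjustment over all tested genes and a threshold of 0.05. They were also run on simulated counts with large changes in genes of higher counts and with no effect of the animal. That run does not cover low counts or the smaller differences between the vectors. The p-values rest on the spread between the libraries of a group, 1 per animal, and the main fits had no term for the animal. Named genes are the 6, the 5 most like Pvalb, and up to 4 called genes per list with the largest change, and further list genes were named after their values were seen. Some genes that fall under this rule are not reported here. Alternatives were DESeq2 1.42.0, limma 3.58.1 (voom), library size scaling, no filter, the animal as a block, all libraries in one fit and leaving out libraries. Libraries of 1 animal are paired by design, and the median correlation of their deviations from group means was 0.01 to 0.05. No 2 libraries were duplicates.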

Additional observations from a re-analysis of the deposited data

Results flagged for a closer look

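In 24 groups of 7 libraries (6 genes in 4 groups), 2 single libraries stood apart from the rest of their group by Dixon's test, and chance alone flags about 1 group in 20. With g4, Ank1 in HA-positive nuclei had 201 CPM in animal 17, and the next library had 121 CPM. Minar1 had 27.1 CPM in the empty HA-negative library of animal 23, with the next at 10.7 CPM.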

How the results depend on the processing

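None of the 6 genes passed between the vectors in either fraction under any alternative run. Over all genes, 3 passed between the vectors in HA-positive nuclei, and 11 with DESeq2, 1 with voom, 28 without the filter, 1 with the replicate block (the animal as a block), 8 with all 28 libraries in one fit, 5 without the g4 library of animal 19, 0 without the 4 shallow libraries, and 1 to 4 leaving out each animal. With library size only, 1 gene was higher and 1 lower, against 1 and 2. In HA-negative nuclei the count was 0, and 1 with DESeq2. Between fractions with empty, 388 genes passed, and 661 without the filter, 612 in one fit, and 251 (without animal 19) to 371 leaving out each animal. With g4, 401 passed, and 259 with library size only, and 218 (without animal 20) to 422 leaving out each animal. Parvalbumin companions called ran from 13 to 18 with empty and from 10 to 17 with g4, and the replicate block gave 14 and 13. The near-zero vector difference of Nek7 in HA-positive nuclei turned positive with library size only (0.076), no filter (0.041), the replicate block (0.037), one fit (0.013) and without the g4 library of animal 19 (0.11), and ran from -0.17 to 0.16 leaving out each animal. That of Minar1 turned to 0.072 without that library and ran from -0.42 to 0.10. The cause was not tested. The replicate block changed no member's call. At 0 to 18 counts per HA-negative library, Pvalb is limited by depth.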
